A study of Mus musculus with 2 samples.

Results

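The genes described here encode the GATA transcription factors (Gata1 to Gata6), the FOG cofactors that bind them (Zfpm1 and Zfpm2) and the related repressor Trps1. These 9 genes, of 21887 protein coding genes, were taken from a fixed list of names, and 26 of the 17539 deposited GATA4 peaks had their centre inside one of them or within 100 kb. GATA4 binding was mapped by chromatin immunoprecipitation and sequencing (ChIP-seq) in myoblasts, the dividing precursors of muscle fibres, grown from satellite cells in serum medium with basic fibroblast growth factor. The GATA4 ChIP library was made with a cocktail of Anti-GATA4 antibodies (Santa Cruz C-20 and H-112, and eBioscience eBioevan), and the control library with control IgG. Cells of both libraries came from the mouse stock STOCK Myf5tm1Pas/J, which is named for a targeted allele of Myf5, a gene of muscle determination. The name alone does not give the number of copies of that allele in the cells. With 1 library of each kind there are no replicates, and the deposited peak list of the GATA4 library is the only file. It gives positions and a MACS score per peak, but no expression level and no IgG value. Whether any of these genes was transcribed in the cells, and whether their identity as myoblasts holds at the level of marker genes, cannot be read from it. The score is the authors' own value and is used only to describe and rank peaks within the list, where its median was 99.3, with quartiles of 77.7 and 138.

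GATA factors are zinc finger proteins that bind the letters GATA in DNA. Gata1, Gata2 and Gata3 are best known for roles in blood cells, and Gata4, Gata5 and Gata6 for roles in heart, gut and other endoderm-derived organs. FOG1 (encoded by Zfpm1) and FOG2 (encoded by Zfpm2) do not need to bind DNA themselves. They attach to the amino-terminal zinc finger of a GATA factor and bring in co-repressors such as CtBP and the NuRD complex. FOG1 is the partner of GATA1 in blood, and FOG2 that of GATA4 in the heart. Trps1 has a GATA-type zinc finger and represses transcription. GATA factors often bind the genes of their own family in other tissues, and the positions below ask where GATA4 peaks lay around these genes in myoblasts.

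Most of the peaks lay at the FOG genes. Zfpm2 had 12 and Zfpm1 had 6, which together made up 69.2% of the 26 peaks. Gata3 had 3, Gata6 had 2, and Gata1, Gata5 and Trps1 had 1 each. Gata2 and Gata4 itself had none within 100 kb. In all, 7 of the 9 genes had a peak in the window, against 69.9% of all protein coding genes, a share close to that of genes at large. Within 10 kb it was 4 of 9, against 33.3%, within 50 kb 6 of 9, against 56.8%, and within 200 kb all 9, against 80.8%. A peak centre lay inside 4 of the 9 genes (Gata3, Gata6, Zfpm1 and Zfpm2), against 21% of all protein coding genes. For 24 of the 26 peaks the listed gene was also the nearest protein coding gene. The exceptions were the peaks counted for Gata1 and Gata5.

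**Figure D1:**
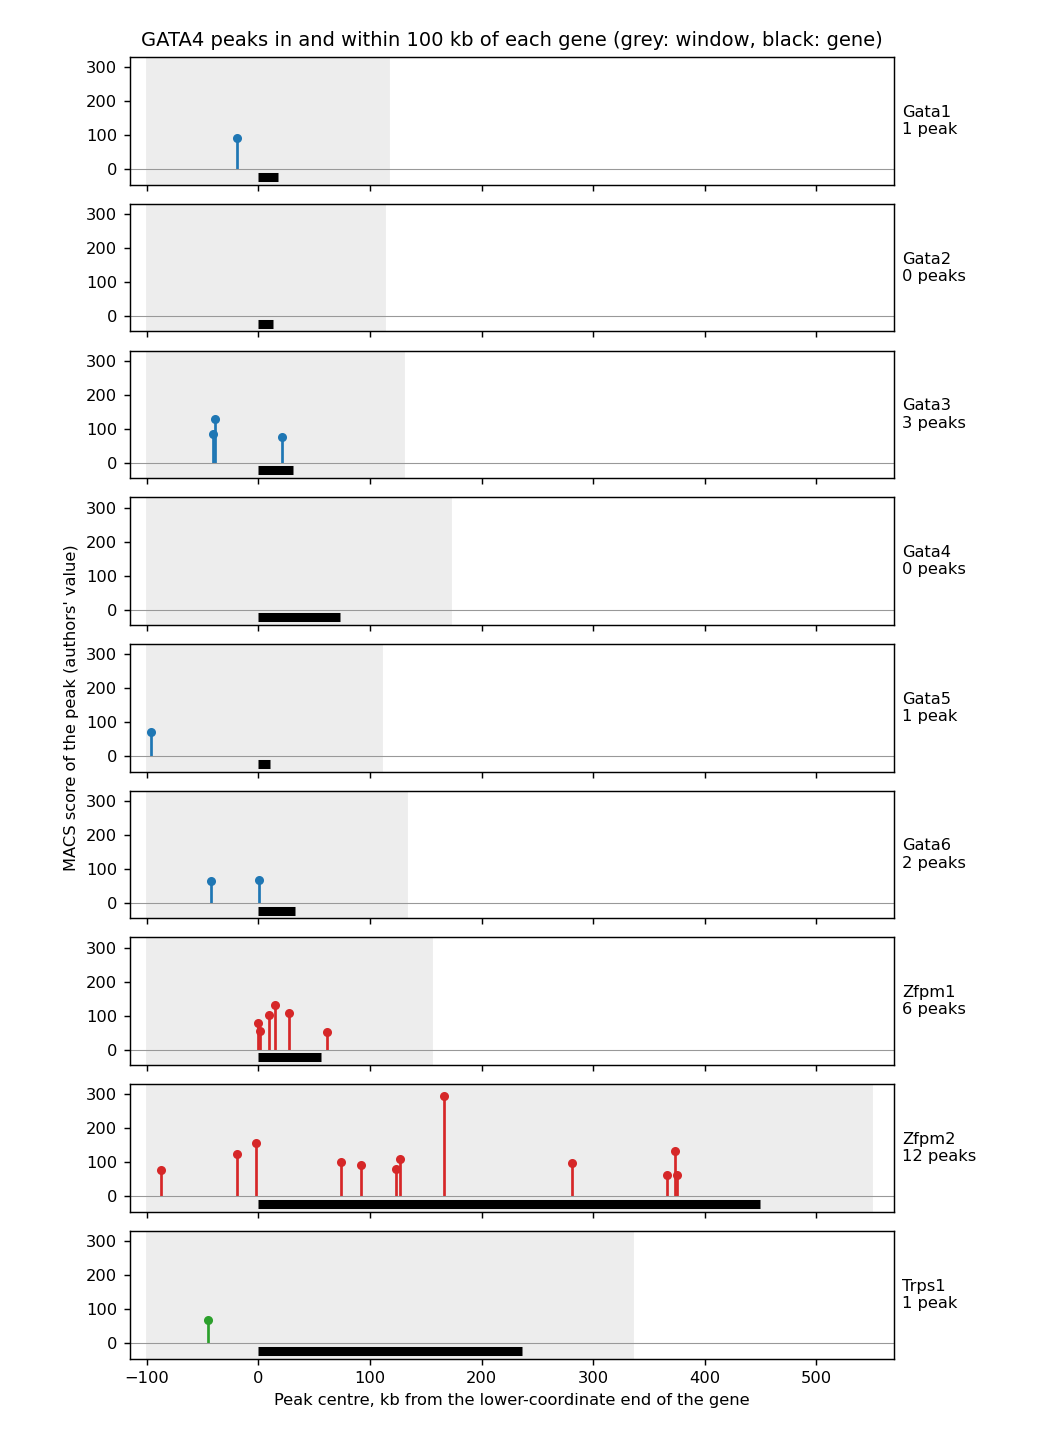
Position (x axis, kb from the lower-coordinate end of each gene) and MACS score (y axis) of every GATA4 peak in the window of each gene. Black bars are genes and grey areas the windows. The 12 peaks of Zfpm2 spread over and beside the gene, the 6 of Zfpm1 lie close to it, and the windows of Gata2 and Gata4 are empty.

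The promoters of Gata3 and Zfpm1 are shown because they are the promoter windows of these genes that a peak overlapped. RefSeq (GRCm38.p6) gave promoter windows, from 250 bases before to 50 after a start, for 5 of the 9 genes (Gata1, Gata2, Gata3, Gata5 and Zfpm1), 6 windows in all since Gata2 has a pair of starts. Of all 32851 promoter windows in the table, 6.1% were overlapped by a peak. The Gata3 peak covered all 300 bases of its window and its centre was 101 bases from the start. The Zfpm1 peak covered 220 bases of its window and ended 31 bases before the start. The 250 bases before each start are printed 5′ to 3′ on the strand of the gene, with Gata3 at chr2:9878601-9878850 (minus strand) and Zfpm1 at chr8:122281891-122282140 (plus strand). The last 30 bases of the Gata3 window (chr2:9878551-9878580, minus strand) follow, with the letters of a GATA motif in capitals.
Gata3 before the start: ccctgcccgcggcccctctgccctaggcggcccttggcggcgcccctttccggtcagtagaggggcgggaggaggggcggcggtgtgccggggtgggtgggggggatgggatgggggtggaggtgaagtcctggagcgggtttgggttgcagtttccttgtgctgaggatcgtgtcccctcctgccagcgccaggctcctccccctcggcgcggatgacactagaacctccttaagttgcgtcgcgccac
Zfpm1 before the start: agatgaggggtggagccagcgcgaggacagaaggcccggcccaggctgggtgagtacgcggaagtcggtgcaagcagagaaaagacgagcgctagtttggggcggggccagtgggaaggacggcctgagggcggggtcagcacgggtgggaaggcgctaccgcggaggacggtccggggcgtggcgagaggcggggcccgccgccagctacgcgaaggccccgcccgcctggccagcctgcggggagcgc
Gata3 after the start: ctgcctggcgccgtctTGATAGtttcagaa

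The windows were searched on both strands for AGATAA, for AGATAG, for TGATAA and for TGATAG, the letters preferred by GATA factors. The Gata3 window held 1 match, TGATAG, whose first letter is base 37 after the start. It was the only match in the 6 windows of these genes, and none lay in the 250 bases before a start. Of all promoter windows in the table, 29.8% held a match. Among those under a peak 23.8% did, against 30.2% of those not under a peak. Windows under a peak also had a higher share of G and C, with a median of 59.7% against 52.3%, and the part of base composition in that difference was not tested. The Gata3 window had 67.3% and the Zfpm1 window 73.7% of G and C. The E-box letters, searched as CACCTG, or as CAGCTG, or as CAGGTG, of the kind that MyoD and its partners bind, were found in 32.9% of all windows. The Gata3 window held a CAGCTG that begins at the last base before the start, and the second Gata2 window, which no peak overlapped, held another. The letters TGACTCA or else TGAGTCA, bound by AP-1 factors, were in 5.2% of all windows and in none of these 6.

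Gata4 itself had no GATA4 peak in or near it. The gene lies on chromosome 14 from 63198914 to 63271712 and is 72.8 kb long. Its nearest peak, with a score of 65.1 at chr14:63377120-63377850, was 106 kb away on the higher-coordinate side, just outside the window, and inside Blk, a kinase gene of B cells. On the lower-coordinate side the nearest peak was 782 kb away. Gata4 therefore sat in a stretch of 960 kb without a peak centre. Among all protein coding genes 20.9% lay in a peak-free stretch at least as long, and on chromosome 14, which had a low density of 3.3 peaks per Mb, 33.1% did. At that density the window of Gata4 would hold 0.9 peaks, and the interval of its count of 0 (exact 95% Poisson interval 0 to 3.69) includes that number. Of the coding genes of chromosome 14, 43.5% had no peak within 100 kb. Of coding genes at least as long as Gata4, 43.1% had no peak inside. No peak was thus listed at the gene of GATA4 itself, and binding below the calling threshold is not seen in such a list.

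Gata6, a close relative of Gata4, had a peak at its lower-coordinate end. It lies on chromosome 18 from 11052510 to 11085636. The peak (11052515 to 11053170) was 656 bp wide, had its centre 0.332 kb into the gene and scored 68.7, higher than 13.2% of the list. The lncRNA gene Gata6os ends at 11052567, within the same peak, and was 0.275 kb from its centre. The second Gata6 peak was 42.8 kb outside on the lower-coordinate side, 1.06 kb from the lncRNA gene 9130001E16Rik, and scored 64.4. Both scores were below the lower quartile of the list. No peak lay on the higher-coordinate side for 322 kb.

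Gata5, the remaining member of that subgroup, had its only peak near the edge of the window. It lies on chromosome 2 from 180325088 to 180335503. The peak (180228346 to 180228916, score 71.6) was 96.5 kb away, just inside the limit, and only 2.73 kb from Lama5, a laminin subunit gene with 2 more peaks inside it. On the other side, Mir1a-1 and Mir133a-2, which encode muscle microRNAs, lie 53.5 and 62.9 kb from Gata5 and were 160 and 170 kb from the nearest peak. Gata5 lay in a peak-free stretch of 484 kb, and 32.6% of coding genes lay in one at least as long. Gata4, Gata5 and Gata6 together had 3 peaks, and their chromosomes' densities would give 3.89. None of the 3 scored above the median of the list.

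Gata3 had the highest-scoring peak among the GATA genes. It was also the only one of them with a peak over a promoter in the RefSeq table, where Gata4 and Gata6 have no entry. It lies on chromosome 2 from 9857078 to 9887953, on the minus strand. The peak over its start in the promoter table (9877988 to 9879010) was 1023 bp wide and scored 75.3, higher than 22.9% of the list. That start lies inside the gene span. The centre of the peak was 9.454 kb from the higher-coordinate end of the span, which no peak overlapped. A pair of peaks lay on the lower-coordinate side, past the end of transcription. One at 38.5 kb (9818199 to 9818914) scored 129, higher than 70.2% of the list, and its neighbour at 40.8 kb (9815911 to 9816706) scored 85.4. Their centres were 2.25 kb apart, and no other coding gene was closer to them than Gata3. Just outside the window, at 107 kb on the same side, was a further peak with a score of 73.5. On the other side of Gata3 the nearest peak was 161 kb away, at an end of Taf3, a gene of the general transcription machinery. Of all coding genes, 36.2% had at least 3 peaks within 100 kb, so the number at Gata3 was not unusual.

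Gata1 and Gata2, the factors of red cell and blood stem cell development, had no peak inside. Gata1 lies on chromosome X from 7959260 to 7976663, on the minus strand. Its 1 peak (7939828 to 7940513, score 91.5) was 19.1 kb away and inside Hdac6, the gene of a cytoplasmic deacetylase. The next one, just outside the window at 108 kb, was inside Was, which encodes an actin regulator of blood cells, and scored 190. Chromosome X was poor in peaks, with 1.18 per Mb, and 69.3% of its coding genes had none within 100 kb. Gata2 lies on chromosome 6 from 88193891 to 88207032, on the plus strand. Its nearest peak was 152 kb away inside Rab7, a gene of endosome transport, and the nearest on the higher-coordinate side was at 275 kb inside Ruvbl1. The peak-free stretch around Gata2 was 441 kb, and 33.9% of coding genes lay in one at least as long. Of the coding genes of chromosome 6, 29.6% had no peak within 100 kb.

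The FOG genes together stood higher than the GATA genes in number of peaks and in median score. The windows of Zfpm1 and Zfpm2 held 18 peaks in 0.906 Mb, or 19.9 per Mb (exact 95% Poisson interval 11.8 to 31.4), which was 2.69 times the number at their chromosomes' densities (1.59 to 4.25). The windows of the 6 GATA genes held 7 peaks in 1.38 Mb, or 5.08 per Mb (2.04 to 10.5), and 0.976 times that number (0.392 to 2.01). The intervals cover counting error only, and peaks that lie close together are not independent. The median score was 99.6 for the peaks of the FOG genes and 75.3 for those of the GATA genes. The FOG median was thus close to the 99.3 of the whole list, and the GATA median was below its lower quartile of 77.7. By gene, the median was 90.97 at Zfpm1 and 99.86 at Zfpm2. Of the FOG peaks 9 of 18 scored above the median of the list, and of the GATA peaks 1 of 7 did. No test was made of these differences.

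**Figure D2:**
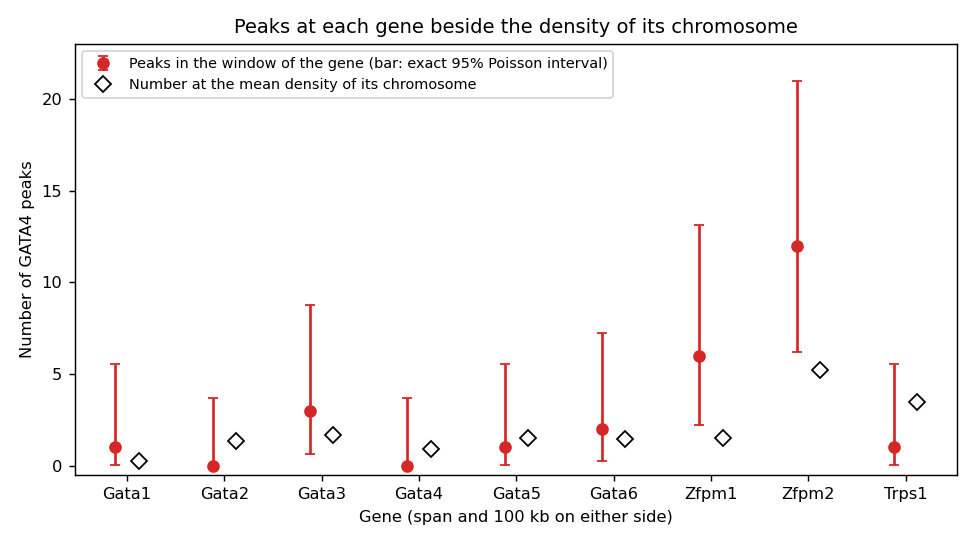
Number of GATA4 peaks in the window of each gene (red, with exact 95% Poisson intervals) beside the number at the mean density of its chromosome (open diamonds). The intervals of Zfpm1 (2.2 to 13.1) and Zfpm2 (6.2 to 21.0) lie above the numbers of 1.5 and 5.2. Those of Gata1, Gata2, Gata3, Gata4, Gata5, Gata6 and Trps1 include theirs. The intervals cover counting error only, and no test was made. Among coding genes 9.71% had at least as many peaks within 100 kb as Zfpm1. Of coding genes at least as long as Zfpm2, 15.2% had at least as many peaks inside.

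Zfpm1 had all of its peaks within 10 kb. The gene lies on chromosome 8 from 122281856 to 122337862, on the plus strand, and is 56.0 kb long. Its first pair of peaks lay on either side of the RefSeq start at 122282141. The upstream one (122281197 to 122282110, score 79.8) ended 31 bases before that start, and the other (122282799 to 122283468, score 56.4) began 658 bases after it. Both centres lie in the lncRNA gene Gm39269, which spans the start. The centre of the upstream peak is 0.203 kb outside the span of Zfpm1, and that of the other lies inside both genes.

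The other 3 peaks inside Zfpm1 scored above the median of the list. They lay at 122290964 to 122291899 with a score of 102, at 122296164 to 122297023 with a score of 132, and at 122309038 to 122310066 with a score of 109. The last peak, 5.38 kb past the higher-coordinate end, scored only 52.3, and all but 0.3% of the list scored higher or the same. Scores at Zfpm1 thus were highest within the first part of the gene body and lower at the start and past the end. Among coding genes 9.71% had at least 6 peaks within 100 kb, and 2.57% had at least 4 inside. These shares are over genes of all lengths, and Zfpm1 was not set beside genes of its own length. Another 7 coding genes reach into the window, yet for each of the 6 peaks Zfpm1 was the nearest coding gene. The peak just outside the window, at 106 kb, lay beside Mvd, a gene of the mevalonate pathway, and scored 70.5.

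Zfpm2 had the most peaks and the highest score of the 9 genes. It lies on chromosome 15 from 40655042 to 41104592 and is 450.0 kb long, with no other coding gene in its window. Inside it were 9 peaks, with 3 more on the lower-coordinate side and none within 100 kb of the higher-coordinate end. The strongest (40820943 to 40821885) lay 166.372 kb from the lower-coordinate end, was 943 bp wide and scored 295. It was number 384 of the list from the top, higher than 97.8% of peaks. The next, with a score of 158, lay 2.19 kb outside the lower-coordinate end (40652505 to 40653205).

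The remaining Zfpm2 peaks had scores across much of the range below that. A peak at 41027619 to 41028888 was the widest of the 26, at 1270 bp, and scored 133, and a neighbour that began 580 bp after it ended scored 63.5. Inside the gene, neighbouring peak centres were from 1.6 to 115 kb apart, with a median of 24.4 kb. Of the 12 peaks, 6 scored above the median of the list. The farthest on the lower-coordinate side was 87.0 kb away, and the first beyond the limit was at 126 kb on each side, with scores of 72.5 on the lower-coordinate side and 127 on the higher.

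Some peaks of Zfpm2 were narrow and carried scores found many times in the list. Peaks of 382, 409 and 507 bp had scores of 110, 124 and 97.0, values that 607, 487 and 659 peaks of the list share exactly. The Gata5 peak, 571 bp wide, had a score shared by 555. Such scores, shared by at least 100 peaks, made up 15.4% of the 26 peaks and 25.1% of the list, where those peaks had a median width of 494 bp against 745 bp for all. Their part in the count at Zfpm2 was not tested.

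Beside genes of its own length, Zfpm2 stood out less than among all genes. Only 0.914% of coding genes had at least 12 peaks within 100 kb, and 0.425% had at least 9 inside. Among the 282 coding genes at least as long as Zfpm2, however, 15.2% had at least 9 inside. At the density of chromosome 15, 8.01 peaks per Mb, the gene itself would hold 3.6 peaks and its window 5.2, against the 9 and 12 found.

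**Figure D3:**
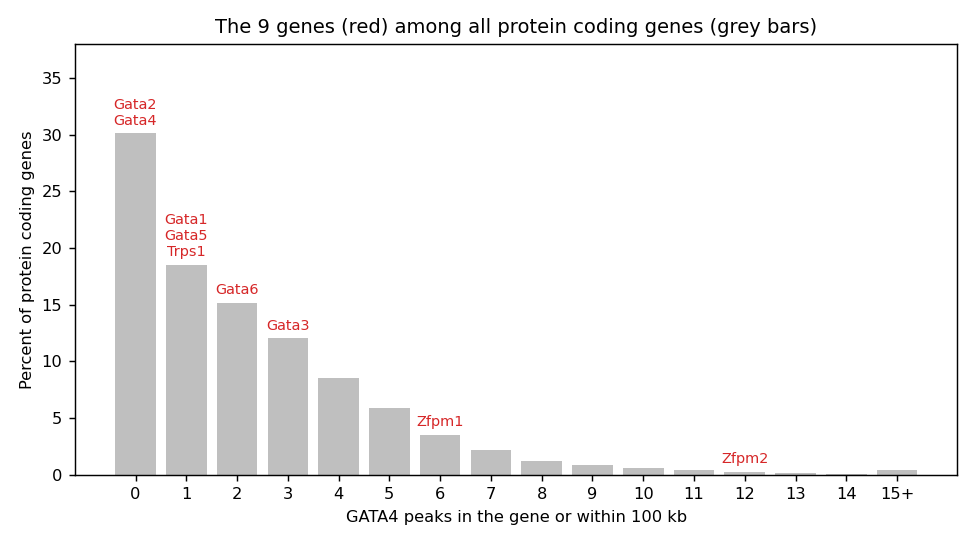
Share of all protein coding genes (grey bars, y axis in percent) by number of GATA4 peaks in the gene or within 100 kb (x axis), with the 9 genes named in red above the bar of their own count. Gata2 and Gata4 are in the most frequent class with 0 peaks, and Zfpm2 with 12 is among the 0.914% of genes with at least as many.

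Trps1, also a long gene on chromosome 15, had 1 peak near it. It spans 236 kb (50654757 to 50890631) and held no peak inside, while the density of its chromosome would give 1.89. Of the 778 coding genes at least that long, 32.5% had no peak inside. Its only peak within 100 kb (50609447 to 50610098) was 45.0 kb away on the lower-coordinate side and scored 68.8, higher than 13.4% of the list. The window count of 1 (exact 95% Poisson interval 0.0253 to 5.57) was 0.286 times the 3.49 at the density of the chromosome, which the interval includes.

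Across the 26 peaks the scores were mostly modest. They ran from 52.3 to 295 with a median of 88.5, against 99.3 for the whole list, and 10 of 26 were above that median. Only 2 of the 26, both at Zfpm2, were above the upper quartile of the list, and 10 were below the lower quartile. Their median width was 721 bp, against 745 bp for the whole list. Of the 9 genes, 3 had a peak above the median score within 100 kb (Gata3, Zfpm1 and Zfpm2), against 50.9% of all coding genes. Over all windows there were 26 peaks, 1.5 times the 17.4 at the chromosomes' densities (0.978 to 2.19). Without Zfpm2 the 14 others were 1.15 times their number (0.63 to 1.93).

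**Figure D4:**
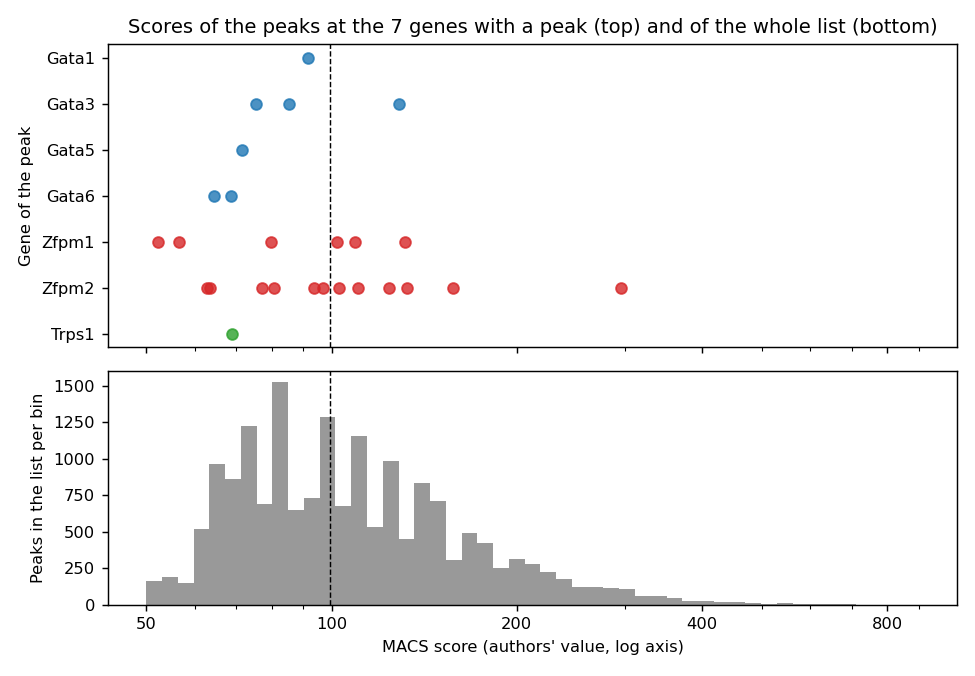
MACS scores (x axis, log scale) of the 26 peaks by gene (top) and of all 17539 peaks of the list (bottom, number per bin). The dashed line is the median of the list, 99.3. All peaks of Gata1, Gata5, Gata6 and Trps1 lie below it, and the peak of Zfpm2 at 295 is the highest of the 26.

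Genes whose products work with GATA and FOG proteins were counted in the same way, on 3 lists. Of 18 partners of GATA factors, such as other cardiac and blood transcription factors and co-activators, 15 had a peak within 100 kb, or 83.3%, against 69.9% of all coding genes. Within 10 kb it was 5 of 18, or 27.8%, against 33.3%. Runx1, a blood transcription factor, had the most of these, with 15 peaks within 100 kb and 10 inside, and its highest score was 206. Runx1 is a long gene (chr16:92601466-92826074) and was not set beside genes of its own length. Crebbp, a histone acetyltransferase gene, had 7 peaks within 100 kb, and the highest, at 229, was inside. Lmo2, which encodes a bridging protein of GATA complexes in blood, had a peak of 208 at 8.95 kb. The peak of 245 counted for Nr5a1, a steroidogenic factor, was 90.9 kb away and nearer to Nr6a1. Tbx5, Tbx20 and Nfatc4 had none.

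Of 14 genes of co-repressors that FOG proteins bring in, 13 had a peak within 100 kb, or 92.9%, against 69.9% of all coding genes. Within 10 kb it was 7 of 14, against 33.3%, and inside the gene 4 of 14, against 21%. Only for Ctbp1, Gatad2a and Mbd2 was the listed gene the nearest coding gene of its highest-scoring peak. Gatad2a, a NuRD subunit gene, had 3 peaks and a score of 198 inside, a value that 116 peaks of the list share. For Mta2, Rbbp4 and Mbd3, also NuRD subunit genes, the highest scores were 421, 214 and 213, but the nearest coding genes to those peaks were Ahnak, Sync and Tcf3. Rbbp7 on chromosome X had none within 100 kb. Of 8 other genes with a GATA-type zinc finger, of which 5 are also on the co-repressor list, all 8 had a peak within 100 kb, against 69.9% of all coding genes, and 4 of 8 within 10 kb, against 33.3%. Rere, which encodes a nuclear receptor co-regulator, had 13 peaks within 100 kb, 9 of them inside, with a highest score of 380. Rere is also a long gene (chr4:150281511-150621966) and was not set beside genes of its own length. Mta1 had 6 peaks within 100 kb, and its highest, at 104, was 97.3 kb away and nearest to Brf1. The median number of peaks within 100 kb was 1 for GATA partners, 3 for co-repressors and 4 for the zinc finger genes, beside 1 for the 9 genes and 2 for all coding genes.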

How the data were processed

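GATA4 and IgG chromatin immunoprecipitation libraries, 1 of each, were sequenced from mouse myoblasts. The submitters' processing notes name CASAVA 1.8, Bowtie and the build GRCm38 (mm10). The file header names MACS in Galaxy as the peak caller, and the authors deposited 1 peak list with a MACS score per peak. The sources used here do not give the Bowtie and MACS versions, the read filters, the treatment of duplicates, the threshold or the role of the IgG library in calling. Read depth is therefore unknown, and no IgG background can be set beside the peaks. The list was taken as that of the GATA4 library because its name and the library's title name GATA4.

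Peak starts were made 1-based. A peak belonged to a gene when its centre lay in the gene span or within 100 kb, by the RefSeq gene table of GRCm38.p6, in which all members and partner genes matched. That table gives no strand, exon or untranslated region. Counts have exact 95% Poisson intervals, for counting error only. The density of a chromosome is its number of peaks over the length from its first to its last annotated gene base. Promoter sequences came from RefSeq (GRCm38.p6). No test was made, since there was 1 library per antibody. The members and lists were chosen with earlier results of these data known. Named were all members, the nearest coding gene of each member's peaks where this was another gene, the peaks just inside and outside 100 kb, and up to 4 genes per partner list by highest score. The alternatives were windows of 10, 50 and 200 kb, peaks above the median score, overlap in place of the centre, and nearest gene assignment. The counting was tested on simulated peaks. Python 3.11.15, pandas 2.3.3, numpy 2.4.6, SciPy 1.17.1 and matplotlib 3.10.9 were used. A planned comparison of GATA proteins by identity and a motif search in the peaks themselves were not run, since neither protein nor genome sequence was used here.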

Additional observations from a re-analysis of the deposited data

How the results depend on the processing

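The number of the 9 genes with a peak, 7 in the report, was 4 within 10 kb and 3 with peaks above the median score. The windows of 50 and 200 kb gave 6 and 9. The shares of all coding genes in these settings were 33.3%, 50.9%, 56.8% and 80.8%, in the same order. Overlap and nearest gene gave 7 and 5, and the share of all coding genes was not counted for them. The number of peaks, 26, was 45 within 200 kb, 10 with peaks above the median score, 47 when each peak went to its nearest coding gene and 14 without Zfpm2, a choice made after seeing the data. By construction these settings take in more or fewer bases, peaks or genes. The ratio to the chromosomes' densities, 1.5, was 2.33 within 10 kb, where the cause was not tested, and 1.15 to 2.0 otherwise. Within 10 kb the partner lists had 5 of 18 (GATA partners), 7 of 14 (co-repressors) and 4 of 8 (zinc finger genes) genes with a peak, against 33.3% of all coding genes. With peaks above the median score they had 10, 9 and 4, in the same order, against 50.9%. The number of promoters of these genes with GATA letters, 1, was 0 in the 250 bases before the start alone, also chosen after seeing the data, since the match lies after it. No paired analysis was possible because there was 1 library per antibody and 1 peak list. Unknown depth limits every statement on a gene without peaks.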

Other observations

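Gata3, Trps1 and Zfpm2 were also the nearest coding genes of peaks beyond 100 kb, for Zfpm2 those at 126 kb on each side. How many peaks other coding genes at large were nearest to was not counted. Gata3 was nearest to 18 peaks, with the 3 within 100 kb included. Of the 18, 17 lay on the lower-coordinate side of the gene, at distances from 38.5 to 1120 kb. Their scores had a median of 90.6, and the highest, 198, lay 327 kb away (chr2:9529787-9530355). That score is shared by 116 peaks of the list, and the peak was 61.1 kb from the lncRNA gene Gm13218. Of these 17 peaks, 6 scored above the median of the list. Trps1 was nearest to 7 peaks, with the 1 within 100 kb included and none inside, at distances from 45.0 to 552 kb. On the lower-coordinate side, peaks at 146, 231 and 552 kb had scores of 182, 239 and 179, each above the highest score at any of the 6 GATA genes within 100 kb. No coding gene was nearer to these peaks, and distance alone does not assign them.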
